A study of Mus musculus with 8 samples.

Results

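The levels of 10 B lineage genes were followed in macrophages and plasma cells of mouse bone marrow. They comprised 5 genes of B cell precursors, Igll1, Vpreb1, Vpreb3, Rag1 and Rag2, and 5 genes of mature B cells, Pax5, Cd79a, Cd79b, Ms4a1 and Blk. The genes were taken by name, and all 10 were found in both deposited count tables, among 47643 gene identifiers for macrophages and 52458 entries for plasma cells. All 8 samples came from wild-type mice of the B6 strain. GFP-positive Vk*MYC myeloma cells, a plasma cell tumour enriched by CD138, had been placed in the tibia. Tumour-associated macrophages (TAM) were sorted from the marrow as F4/80 high and CD11b low cells. GFP, the marker of the tumour cells, divided them into GFP-positive TAM, labelled as in contact with myeloma (TAM-IC, n = 2), and GFP-negative TAM, labelled as not in contact (TAM-NIC, n = 2). Bone marrow macrophages of naive mice, without tumour, were the controls (n = 2). A further 2 libraries held plasma cells, and the labels do not say which of them is Vk*MYC myeloma and which polyclonal CD138-high, B220-low plasma cells of naive mice. The labels give no ages, no times after injection and no number of animals per library, so p-values measure only the spread between these samples, which may be technical. In all lists of values below, replicate 1 comes before replicate 2.

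B cells arise in the bone marrow from precursors that first join the gene segments of the immunoglobulin heavy chain. RAG1 and RAG2 form the recombinase that cuts DNA for this step. The new heavy chain is tested in a pre-B cell receptor, in which VPREB1 and IGLL1 (lambda5) stand in for the light chain. CD79A and CD79B are the signalling chains of both the pre-B cell receptor and the mature B cell receptor. PAX5 is the transcription factor that holds cells in the B lineage, MS4A1 (CD20) is a surface protein of mature B cells, and BLK is a Src family kinase of the receptor pathway. On becoming plasma cells, B cells switch PAX5 off and turn to antibody secretion.

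The surrogate light chain genes and Cd79a are classical targets of the B lineage factors EBF1 and E2A, so the stretch of DNA before their start sites is shown. RefSeq promoter sequences on GRCm38.p6 were held for 7 of the 10 genes, and those for Cd79b, Ms4a1 and Blk were not used here. Each line below reads 5′ to 3′ on the gene's strand and ends at the RefSeq start, except that of Cd79a, which ends 116 bases earlier, where GENCODE M21 already places transcribed bases. The Vpreb1 and Vpreb3 windows lie inside longer gene models of GENCODE M21, and that of Vpreb1 overlaps an exon of another transcript. Capitals mark matches, on either strand, to CCCNNGGG (an EBF1 site), CAGGTG (an E box of E2A) or ATGCAAAT (the octamer bound by POU factors). The windows are chr16:16863986-16864235 on the minus strand for Igll1, chr16:16869256-16869505 on the minus strand for Vpreb1, chr10:75948050-75948299 on the plus strand for Vpreb3 and chr7:24897247-24897380 on the plus strand for Cd79a.
Igll1: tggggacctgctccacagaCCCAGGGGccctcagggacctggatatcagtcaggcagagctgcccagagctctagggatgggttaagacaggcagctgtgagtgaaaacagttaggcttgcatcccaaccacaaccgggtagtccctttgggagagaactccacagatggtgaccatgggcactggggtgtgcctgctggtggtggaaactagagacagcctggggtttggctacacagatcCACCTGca
Vpreb1: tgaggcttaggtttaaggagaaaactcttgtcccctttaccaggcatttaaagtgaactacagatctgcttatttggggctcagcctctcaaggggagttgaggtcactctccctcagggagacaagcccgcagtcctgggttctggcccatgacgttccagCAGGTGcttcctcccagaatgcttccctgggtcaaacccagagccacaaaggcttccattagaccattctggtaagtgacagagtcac
Vpreb3: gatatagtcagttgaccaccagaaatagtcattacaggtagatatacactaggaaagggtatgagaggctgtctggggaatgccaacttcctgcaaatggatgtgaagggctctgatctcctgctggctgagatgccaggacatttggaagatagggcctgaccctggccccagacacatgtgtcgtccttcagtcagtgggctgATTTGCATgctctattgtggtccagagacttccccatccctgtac
Cd79a: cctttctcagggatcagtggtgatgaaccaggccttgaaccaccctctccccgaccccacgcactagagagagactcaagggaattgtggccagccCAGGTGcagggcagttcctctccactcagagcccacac

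The EBF1 motif was matched in 1 of the 7 promoters, that of Igll1, with its first base 231 bases before the start. It was matched in 11.8% of 32851 promoter windows of 250 bases. The E box was matched in 4 of 7, in Igll1 8, Vpreb1 88, Rag1 135 and Cd79a 154 bases before the start, and in 17.2% of all windows. The octamer was matched in 1 of 7, in Vpreb3 45 bases before the start, and in 1.60% of all windows. No motif overlapped another in the printed sequences. These matches describe letters, and RNA libraries do not measure binding.

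The macrophage libraries held 28887725 to 46873056 counts and the plasma cell libraries 81792139 and 38343783. All levels are counts scaled to the library total, as CPM. Where a macrophage library had no count, up to 3 remain possible, which is 0.064 to 0.104 CPM, and such limits cover counting error only. All 12 macrophage markers were found above 0 in the 6 macrophage libraries, and Adgre1, which encodes the sorted marker F4/80, stood between 519 and 1223 CPM. The second library of TAM-NIC stood apart. Immunoglobulin genes took 9.13% of its counts, against 0.166% to 0.632% in the other 5 macrophage libraries, and its 10 plasma cell markers summed to 5678 CPM, against 618 to 907. The second library of TAM-IC had 88.4 CPM of the Y-linked gene Ddx3y and 0 counts of Xist, and the other 5 had at most 0.258 CPM of Ddx3y, so the pair labelled mouse 2 did not come from 1 animal.

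Naive macrophage libraries held the highest levels of the B lineage genes among macrophages. For 10 of 10 genes both naive libraries stood above all 4 TAM libraries, a pattern found in 16.6% of the 15522 genes tested. For 9 of 10, all but Cd79b, the lower naive value was over 2 times the highest TAM value, a pattern found in 2.32% of genes tested. With 2 libraries a group, edgeR's quasi-likelihood test with Benjamini-Hochberg adjustment nevertheless called 0 of the 10 genes in any of the 3 comparisons. In bulk RNA, fewer cells of a type and less RNA per cell cannot be told apart, and whether these reads came from the sorted macrophages or from B lineage cells among them was not tested.

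**Figure D1:**
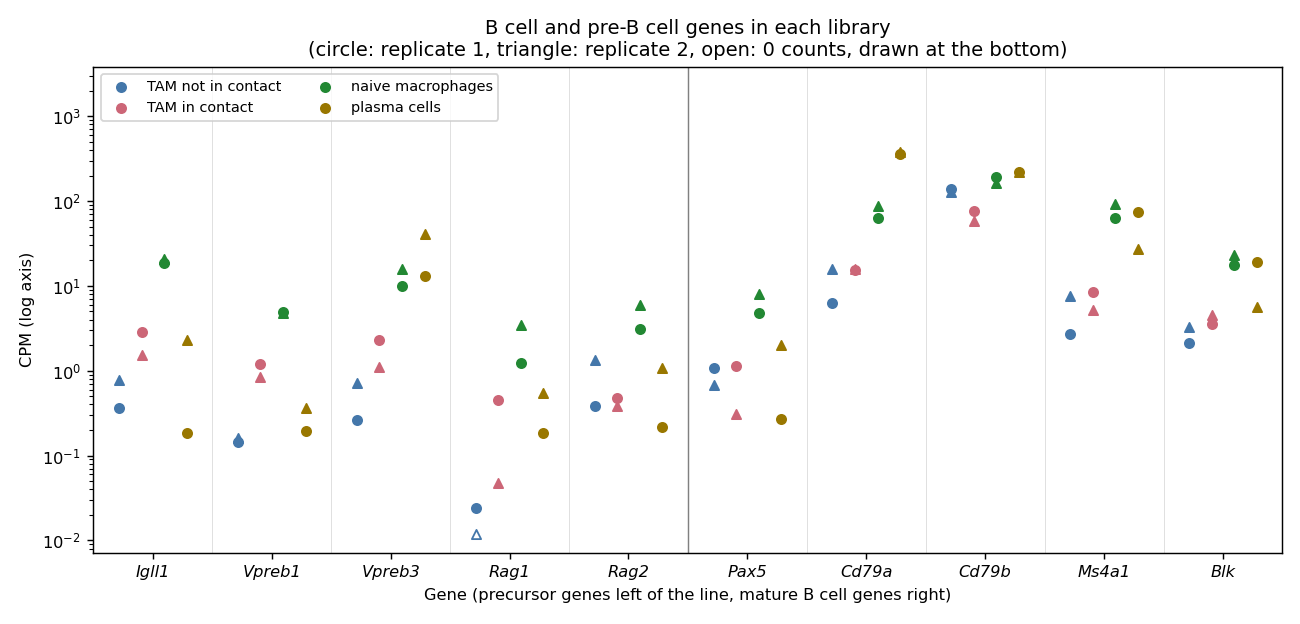
Level of each of the 10 genes in each of the 8 libraries, in CPM on a log axis, with colours for the 4 groups and shapes for the 2 replicates. The green naive points stand above the blue and red TAM points for every gene, by the smallest margin for Cd79b, and the open triangle marks the library with 0 counts of Rag1.

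Igll1 (ENSMUSG00000075370.10), the lambda5 part of the surrogate light chain, lies on GRCm38 chromosome 16, 16860671 to 16863985, minus strand. It stood at 0.363 and 0.773 CPM in TAM-NIC, 2.85 and 1.52 in TAM-IC and 18.5 and 20.98 in naive macrophages. The 3 groups did not overlap, and the naive mean of 19.7 ± 1.75 CPM (SD, n = 2) was 34.8 times that of TAM-NIC and 9.03 times that of TAM-IC. Vpreb1 (ENSMUSG00000059305.10), its partner chain, lies next to Igll1 on the same strand (16868403 to 16870843). It stood at 0.145 and 0.161 CPM in TAM-NIC, 1.19 and 0.854 in TAM-IC and 4.95 and 4.85 in naive macrophages. Its order of groups was that of Igll1, again without overlap, and the TAM-NIC values rest on 11 counts in all. Of the 50-base windows of Vpreb1 transcripts, 23.6% also occur in transcripts of its near copy Vpreb2 or of the overlapping gene Top3b, so part of its count is uncertain. Vpreb2 itself had at most 0.384 CPM in any library.

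Vpreb3 (ENSMUSG00000000903.3), which binds newly made immunoglobulin chains in the endoplasmic reticulum, lies on chromosome 10, 75943057 to 75949657, plus strand. It stood at 0.266 and 0.709 CPM in TAM-NIC, 2.29 and 1.09 in TAM-IC and 9.86 and 15.7 in naive macrophages. The same order held, with naive values at least 4.30 times those of any TAM-IC library and at least 13.9 times those of any TAM-NIC library. The 3 surrogate light chain and related genes thus shared 1 order of groups: TAM-NIC lowest, TAM-IC between, and naive macrophages highest.

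Rag1 and Rag2 lie beside each other on chromosome 2 (Rag1, ENSMUSG00000061311.6, 101638282 to 101649501, minus strand, and Rag2, ENSMUSG00000032864.4, 101624718 to 101632529, plus strand). The gene B230118H07Rik, on the minus strand, overlaps both. It is antisense to Rag2 and lies on the strand of Rag1, and in libraries that do not mark the strand its reads cannot be told apart from those of either gene where they overlap. Rag1 had 1 and 0 counts in TAM-NIC, 20 and 2 in TAM-IC, and 58 and 101 in naive macrophages. Its naive levels were 1.24 and 3.50 CPM, and the 0 in TAM-NIC allows up to 0.0966 CPM. The pooled naive level was 152 times that of TAM-NIC, with an exact 95% binomial interval of 26.9 to 6039 for counting error. The pooled TAM-IC level was 18.4 times that of TAM-NIC (2.97 to 759). Rag1 passed the filter on low counts only through the naive libraries, so its difference from them is in part a condition of its being tested. Without it, both naive libraries stood above all TAM libraries for 9 of 9 genes. Rag2 stood at 0.387 and 1.35 CPM in TAM-NIC, 0.472 and 0.380 in TAM-IC and 3.07 and 6.02 in naive macrophages. The 2 TAM groups overlapped for Rag2, unlike for the other 4 precursor genes, and the lower naive Rag2 value was 2.27 times the highest TAM value. For Rag1, however, the gap between the TAM groups was 2 counts against 1. The lower TAM-IC value of Rag1, 0.0475 CPM, lies under the 0.0966 CPM that the 0 in TAM-NIC allows.

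Among the mature B cell genes, Pax5 was the lowest per length in naive macrophages. It (ENSMUSG00000014030.15) lies on chromosome 4, 44524757 to 44710487, minus strand, and stood at 1.06 and 0.676 CPM in TAM-NIC, 1.15 and 0.309 in TAM-IC and 4.74 and 7.93 in naive macrophages. The TAM groups overlapped, and the lower naive value was 4.13 times the highest TAM value. Ms4a1 (ENSMUSG00000024673.9, chromosome 19, 11249675 to 11266241, minus strand) measured 2.68 and 7.67 CPM in TAM-NIC, 8.36 and 5.17 in TAM-IC and 62.4 and 92.7 in naive macrophages. Its TAM groups overlapped too, and its naive mean of 77.6 ± 21.4 CPM (SD, n = 2) was 14.99 and 11.5 times the means of TAM-NIC and TAM-IC. Blk (ENSMUSG00000014453.3, chromosome 14, 63372836 to 63417037, minus strand) measured 2.13 and 3.25 CPM in TAM-NIC, 3.55 and 4.56 in TAM-IC and 17.7 and 23.3 in naive macrophages. The Blk groups did not overlap, but the nearest values of the 2 TAM groups differed by a factor of 1.09.

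The 2 signalling chains of the B cell receptor did not share a pattern. Cd79a (ENSMUSG00000003379.7, chromosome 7, 24897381 to 24902197, plus strand) measured 6.21 and 16.0 CPM in TAM-NIC, 15.2 and 15.7 in TAM-IC and 62.8 and 87.3 in naive macrophages. The TAM groups overlapped, and the naive mean was 6.76 and 4.85 times their means. Cd79b (ENSMUSG00000040592.11, chromosome 11, 106311341 to 106314762, minus strand) measured 137 and 129 CPM in TAM-NIC, 75.6 and 57.7 in TAM-IC and 190 and 165 in naive macrophages. Its 3 groups did not overlap, and TAM-IC was lowest, not TAM-NIC. The exons of Cd79b and Cd79a span 1431 and 1457 bases, so their CPM can be compared almost directly. The ratio of Cd79b to Cd79a was 22.0 and 8.10 in TAM-NIC, 4.97 and 3.68 in TAM-IC, and 3.02 and 1.89 in naive macrophages. The plasma cell libraries had ratios of 0.607 and 0.582. The receptor holds the chains as a pair, and of the 8 libraries the 2 of plasma cells were those with more Cd79a than Cd79b.

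**Figure D2:**
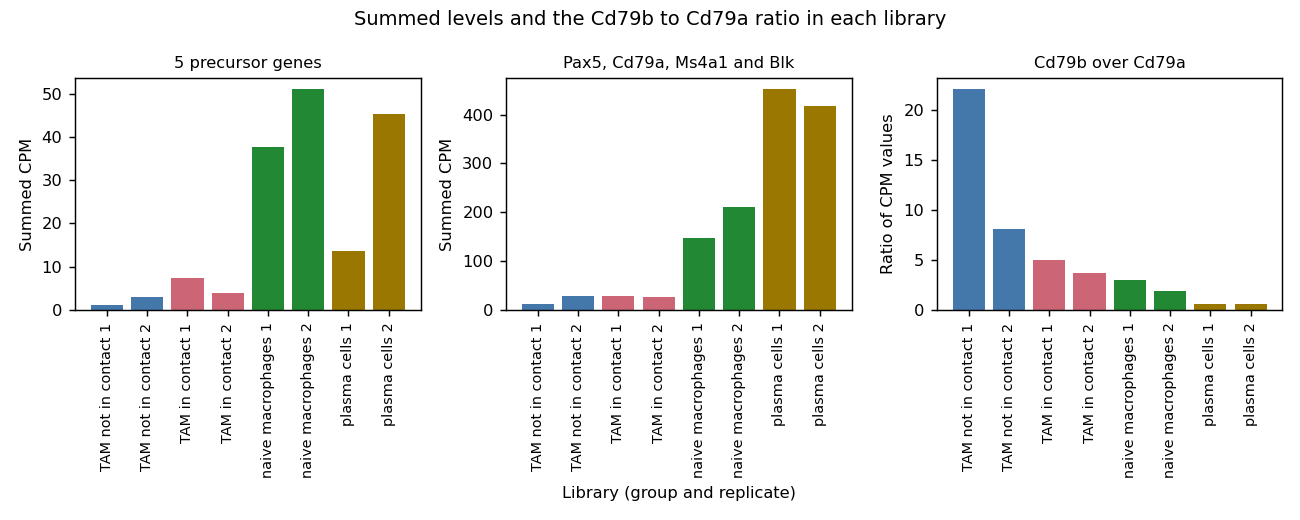
Summed CPM of the 5 precursor genes, summed CPM of 4 mature B cell genes without Cd79b, and the ratio of Cd79b to Cd79a, 1 bar per library in colours of the 4 groups. The naive bars exceed all TAM bars in both sums, and the ratio is highest in TAM-NIC (22.0 and 8.10) and below 1 in plasma cells.

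Summed over the 5 precursor genes, levels were 1.18 and 2.995 CPM in TAM-NIC, 7.26 and 3.89 in TAM-IC and 37.6 and 51.03 in naive macrophages. Summed over Pax5, Cd79a, Ms4a1 and Blk they were 12.1 and 27.6, 28.3 and 25.8, and 148 and 211 CPM for these groups. Precursor sums did not overlap between the TAM groups, and mature sums did. The ratio of the precursor sum to this mature sum was 0.098 and 0.109 in TAM-NIC, 0.257 and 0.151 in TAM-IC and 0.255 and 0.242 in naive macrophages. TAM-IC and naive macrophages therefore overlapped in this ratio, and TAM-NIC lay below both. Ms4a1 was 0.432 and 0.480 times Cd79a in TAM-NIC and 0.549 and 0.329 times in TAM-IC, against 0.994 and 1.06 times in naive macrophages, so this ratio of CPM, compared between libraries and not between genes, did not overlap between naive macrophages and TAM.

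To compare levels between genes, CPM was divided by the length of the gene's exons in kb. In naive macrophages the order was Cd79b (124 ± 12.2 CPM per kb, SD, n = 2), Cd79a (51.5 ± 11.9), Vpreb3 (14.9 ± 4.79), Ms4a1 (12.5 ± 3.46), Igll1 (9.12 ± 0.811), Blk (7.59 ± 1.46), Vpreb1 (4.09 ± 0.0609), Rag2 (1.33 ± 0.609), Pax5 (0.715 ± 0.255) and Rag1 (0.358 ± 0.242). The libraries of neighbours in this order overlapped for Vpreb3 and Ms4a1 and for Igll1 and Blk. In TAM-IC Cd79b led with 46.6 ± 8.82 CPM per kb, followed by Cd79a with 10.6 ± 0.240 and Vpreb3 with 1.97 ± 0.988. In TAM-NIC Cd79b had 93.0 ± 3.72, Cd79a 7.61 ± 4.74 and Blk 0.997 ± 0.295 CPM per kb. By group mean, Cd79b and Cd79a were thus the most abundant per length in each macrophage group, and Rag1 the least. In TAM-IC, however, the libraries of Rag1 (0.0680 and 0.00718 CPM per kb) and Pax5 (0.129 and 0.0349) overlapped.

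Marker lists of other marrow cells moved with some of these levels. The 10 neutrophil markers, none at 0, summed to 9206 and 18233 CPM in TAM-NIC, 51059 and 28718 in TAM-IC and 49538 and 77454 in naive macrophages. TAM-NIC was thus the low group in this sum, as in the sum of the precursor genes. Mpo, Elane and Cxcr2 overlapped between the TAM groups, as did Rag2 among the precursor genes. The part of the neutrophil markers in those results was not tested. The 12 macrophage markers, none at 0, summed to 23933 and 13696 CPM in TAM-NIC, 6452 and 6279 in TAM-IC and 23678 and 11800 in naive macrophages. TAM-IC was the low group in this sum as for Cd79b, and the part of these markers in that result was not tested. Vcam1 and the C1q genes made up most of the sum in TAM-NIC and naive macrophages. Csf1r, the receptor of the macrophage growth factor CSF1, went the other way between TAM-IC and naive macrophages, with 3254 and 1389 CPM in TAM-NIC, 2396 and 4368 in TAM-IC and 1889 and 1120 in naive macrophages. Cd68 and Fcgr1 overlapped between the 3 groups. The 9 erythroid markers, none at 0, summed to 138 and 193, 136 and 41.4, and 423 and 287 CPM in the order above. This sum was highest in naive libraries like the 10 genes, but Epor and Hba-a1 overlapped between naive macrophages and TAM. The part of the erythroid markers was not tested. Plasma cell markers summed to 703 and 5678 CPM in TAM-NIC, 618 and 681 in TAM-IC and 749 and 907 in naive macrophages. The library with 5678 CPM had the higher value of the TAM-NIC pair for 7 of the 10 genes, all but Rag1, Pax5 and Cd79b. The share of all genes higher in that library was not counted, and Vpreb1 had 5 counts there against 6. That library stood below both naive libraries for 10 of 10, as part of the pattern above found in 16.6% of genes tested. The part of the plasma cell markers was not tested. T and NK cell markers ranged from 50.8 to 250 CPM, with overlapping groups. The sum of plasmacytoid dendritic cell markers, 612 to 851 CPM, overlapped too, but most of it was Irf8 (463 to 691 CPM), which macrophages also express. Siglech, a surface receptor of plasmacytoid dendritic cells, stood at 12.3 and 19.3 CPM in TAM-NIC, 3.17 and 2.54 in TAM-IC and 7.81 and 5.50 in naive macrophages, without overlap. Ccr9, a chemokine receptor, stood at 12.4 and 5.96 CPM in TAM-NIC, 3.17 and 1.09 in TAM-IC and 2.13 and 1.49 in naive macrophages. Cox6a2 was also highest in TAM-NIC, at 4.45 and 4.28 CPM, against at most 2.90 in the other groups. Pacsin1 and Tcf4 were highest in TAM-NIC too, without overlap. Smim5 went the other way, at 7.57 and 9.44 CPM in TAM-NIC, 29.7 and 24.9 in TAM-IC and 24.4 and 30.5 in naive macrophages. Klk1 overlapped between the TAM groups, at 14.9 and 0.387 CPM in TAM-NIC and 0.989 and 0.237 in TAM-IC. Most of these markers, but not Smim5, were thus high in the group that was lowest for the surrogate light chain genes. Their part in those results was not tested.

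**Figure D3:**
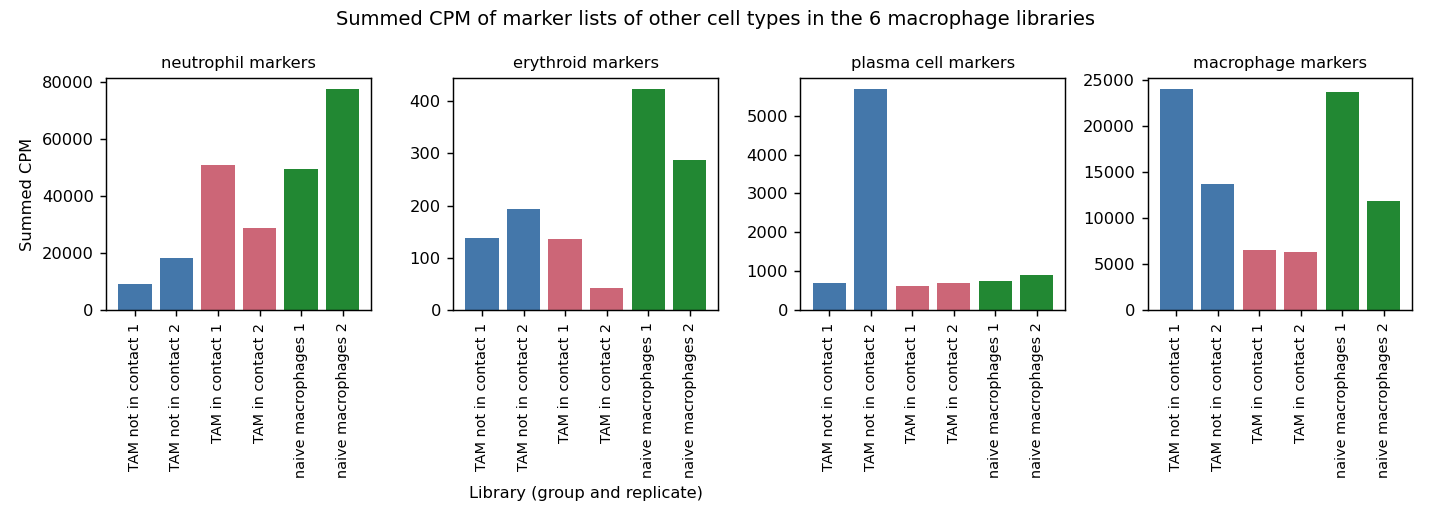
Summed CPM of marker lists of neutrophils, erythroid cells, plasma cells and macrophages in the 6 macrophage libraries, 1 bar per library. Neutrophil markers are lowest in TAM-NIC (9206 and 18233 CPM), macrophage markers are lowest in TAM-IC (6452 and 6279), and the plasma cell sum peaks in 1 library (5678).

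The comparison of TAM-IC with TAM-NIC asks how TAM sorted with the tumour's GFP differ from TAM of tumour-bearing mice without it. Precursor genes mostly stood higher in contact and mature genes were divided. The libraries of TAM-IC lay wholly above those of TAM-NIC for 5 of the 10 genes (Igll1, Vpreb1, Vpreb3, Rag1 and Blk), and 24.4% of all genes tested did so. For Rag1 this rests on 2 counts against 1, and without Rag1 the number was 4 of 9. The TAM-IC libraries lay wholly below for 1, Cd79b, and 22.3% of all genes did so. By edgeR's quasi-likelihood test with Benjamini-Hochberg adjustment, 0 of 10 genes were called, with 0% of all genes called. The log2 fold change was 2.73 ± 0.63 for Vpreb1 (SE, adjusted p = 0.175), 1.97 ± 0.55 for Igll1 (0.200), 1.82 ± 0.68 for Vpreb3 (0.262) and -0.99 ± 0.82 for Rag2 (0.575). Cd79b had -0.99 ± 0.25 (adjusted p = 0.186), Blk 0.62 ± 0.40 (0.475), Cd79a 0.51 ± 0.45 (0.597), Ms4a1 0.42 ± 0.52 (0.728) and Pax5 -0.27 ± 0.78 (0.896). Rag1 had a fitted 3.93 ± 1.63 (adjusted p = 0.297), which rests on 1 count in TAM-NIC and is no bound. An unadjusted p under 0.05 was reached by 4 of 10 genes, Vpreb1, Igll1, Vpreb3 and Cd79b, against 17.1% of all genes. The median log2 fold change was 1.97 over the 5 precursor genes and 0.42 over the 5 mature genes, against -0.00 over all genes tested.

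DESeq2 called 3 of the 10 genes in this comparison, and 9.9% of all genes. They were Vpreb1 (log2 fold change 2.73 ± 0.73, DESeq2 adjusted p = 0.00432) and Igll1 (1.95 ± 0.59, adjusted p = 0.0145), which stood higher in contact, and Cd79b (-1.01 ± 0.30, adjusted p = 0.0123), which stood lower. Without the second library of TAM-NIC, that with high plasma cell markers, edgeR called 0 of 10 and 0% of all genes, with 2.75 ± 0.63 for Vpreb1 (adjusted p = 0.146), 2.54 ± 0.55 for Igll1 (0.135) and -1.08 ± 0.27 for Cd79b (0.170). Leaving out that library moved Rag2 to 0.10 ± 0.66. Without the first library of TAM-NIC edgeR also called 0 of 10, while it called 8.86% of all genes. Igll1 then had 1.55, and 1.504 without the first library of TAM-IC. Over the omission of each of the 6 libraries in turn Igll1 ranged from 1.504 to 2.54 and Vpreb1 from 2.53 to 2.93. Vpreb3 ranged from 1.25, without the first library of TAM-IC, to 2.61, without the second of TAM-NIC. Rag1 ranged from 1.68, without the first library of TAM-IC, to 6.34, without the first of TAM-NIC. Cd79a ranged from 0.015, without the first library of TAM-NIC, to 1.28, without the second. Blk ranged from 0.38 to 0.90 and Cd79b from -1.14 to -0.83, without the first and second libraries of TAM-IC for Cd79b. A group left with 1 library is taken in these fits to vary like the other groups. With no filter on low counts edgeR called 1 of 10, Igll1 (adjusted p = 0.0272), against 7.2% of all genes.

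**Figure D4:**
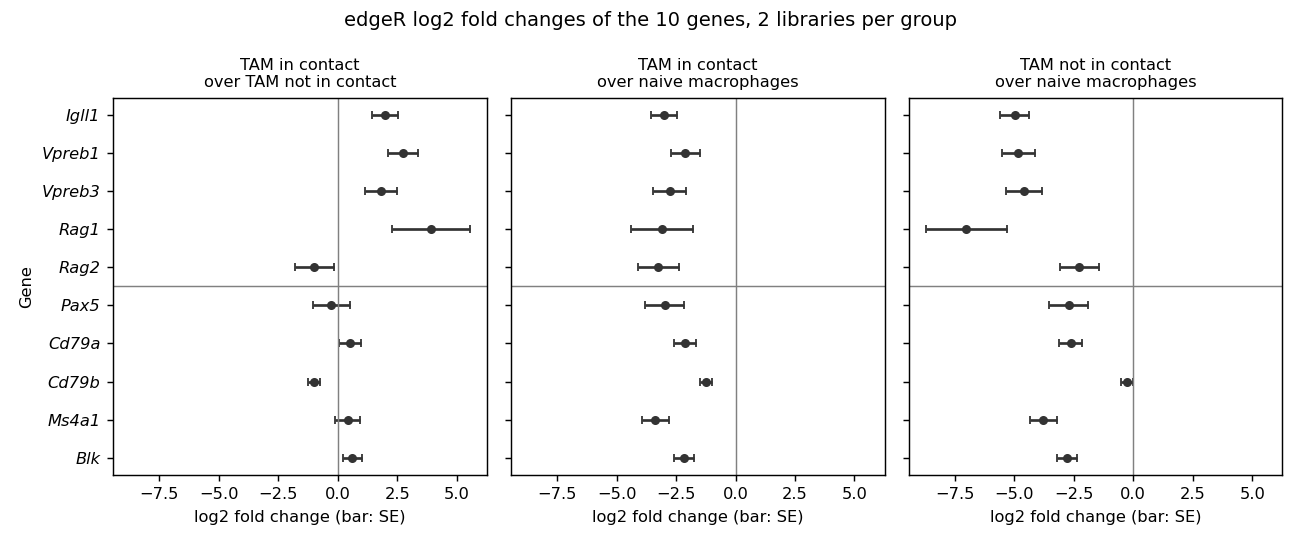
edgeR log2 fold changes of the 10 genes in the 3 comparisons, 2 libraries per group, with the standard error as a bar and a line at 0. Against naive macrophages all 10 values lie below 0 in both TAM groups, and between the TAM groups Igll1, Vpreb1, Vpreb3 and Rag1 lie to the right and Rag2 and Cd79b to the left.

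Against naive macrophages, TAM-IC stood lower for every gene. The libraries did not overlap for 10 of 10 genes, and 36.7% of all genes tested lay wholly lower in the same way. edgeR's quasi-likelihood test with Benjamini-Hochberg adjustment called 0 of 10, against 0.219% of all genes, or 0.187% called as lower. The largest log2 fold changes were those of Ms4a1 (-3.37 ± 0.56, SE, adjusted p = 0.100), Rag2 (-3.25 ± 0.87, 0.217), Rag1 (-3.09 ± 1.32, 0.355) and Igll1 (-3.02 ± 0.55, 0.117). Pax5 had -2.97 ± 0.83 (adjusted p = 0.226), Vpreb3 -2.77 ± 0.68 (0.191) and Blk -2.17 ± 0.42 (0.129). Cd79a had -2.12 ± 0.46 (adjusted p = 0.159), Vpreb1 -2.10 ± 0.59 (0.227) and Cd79b the smallest, -1.26 ± 0.25 (0.135). An unadjusted p under 0.05 was reached by 9 of 10, all but Rag1 and all lower, against 7.51% of all genes that were lower at that level. The median of the 10 was -2.87, and -2.77 without Rag1, against 0.00 over all genes tested.

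TAM-NIC also stood lower than naive macrophages for every gene, without overlap for 10 of 10, against 28.9% of all genes tested. edgeR's quasi-likelihood test with Benjamini-Hochberg adjustment called 0 of 10, with 0% of all genes called. The surrogate light chain and related genes had the lowest values that rest on more than 1 count, with log2 fold changes of -4.99 ± 0.61 for Igll1 (SE, adjusted p = 0.183), -4.84 ± 0.68 for Vpreb1 (0.219) and -4.59 ± 0.75 for Vpreb3 (0.219). Ms4a1 had -3.78 ± 0.58 (adjusted p = 0.219), Blk -2.79 ± 0.43 (0.219), Pax5 -2.71 ± 0.82 (0.245), Cd79a -2.63 ± 0.47 (0.219) and Rag2 -2.26 ± 0.83 (0.291). Cd79b had -0.27 ± 0.25 (adjusted p = 0.666). In CPM, without the scaling between libraries that the fit applies, its naive mean was 1.33 times that of TAM-NIC. The fitted -7.02 ± 1.71 of Rag1 is no bound. An unadjusted p under 0.05 was reached by 9 of 10, all but Cd79b and all lower, against 7.39% of all genes lower at that level. The median of the 10 was -3.29, and -2.79 without Rag1, against 0.06 over all genes tested. It was -4.84 over the precursor genes and -2.71 over the mature genes. Both comparisons with naive macrophages share the same 2 naive libraries, so they are not independent of each other.

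The number of calls among the 10 genes against naive macrophages moved with the tool and with single libraries. DESeq2 called 9 of 10 for TAM-IC (all but Rag1) against 7.66% of all genes, and 8 of 10 for TAM-NIC (all but Rag2 and Cd79b) against 7.59%. Among these, Igll1 had DESeq2 adjusted p-values of 1.39e-06 and 8.38e-15, and Ms4a1 4.68e-07 and 4.90e-08. For TAM-IC, edgeR called 5 of 10 when either library of TAM-NIC was left out, against 3.13% of all genes without the first and 2.92% without the second. TAM-NIC enters this comparison only through the shared estimate of spread, the scaling of the libraries and the genes that pass the filter. For TAM-NIC it called 5 without that group's replicate 1, against 2.8% of all genes, and 6 without its replicate 2, the library rich in plasma cell transcripts, against 1.66%. The lone TAM-NIC library is then assumed to vary like the libraries of the other groups. Limma-voom called 0 in both. With no filter on low counts edgeR called 8 of 10 in each, against 5.53% of all genes for TAM-IC and 5.96% for TAM-NIC, and a fit of TAM-IC and naive libraries alone called 7 against 4.47%.

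Other genes of the same stages were taken from lists and are given by count and by the genes with the smallest p. Of 10 tested B precursor genes outside the 10, both naive libraries stood above all TAM libraries for 6, and of 19 further B cell genes for 9, against 16.6% of all genes tested. Spib, a transcription factor of B cells and plasmacytoid dendritic cells, was the single gene of these B lineage lists called by edgeR's quasi-likelihood test. It stood at 7.88 and 7.63 CPM in TAM-NIC, 8.27 and 5.96 in TAM-IC and 47.0 and 44.0 in naive macrophages. TAM-IC was lower than naive by a log2 fold change of -2.52 ± 0.28 (SE, adjusted p = 0.0493), and TAM-NIC had -2.41 ± 0.28 (adjusted p = 0.183). The Spib call was lost with RLE size factors, limma-voom, a minimum count of 30 and the omission of any 1 library of TAM-IC or of naive macrophages.

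In TAM-IC against naive macrophages, edgeR called 1 of 19 further B cell genes (Spib) and DESeq2 called 9, of which 8 were lower, with 15 of 19 values below 0 and a median of -2.17. Next by p were Bank1, a B cell scaffold protein (-2.33 ± 0.29, adjusted p = 0.0611), Ighd, the IgD heavy chain (-2.90 ± 0.37, 0.0666), and Fcmr, the IgM Fc receptor (-2.79 ± 0.58, 0.152), all by edgeR's quasi-likelihood test. Of the 10 B precursor genes tested edgeR called 0, with 5 at an unadjusted p under 0.05, and 8 were below 0. DESeq2 called 2 of them, 1 lower. Over all genes, edgeR called 0.219%, DESeq2 called 7.66%, and 14.6% had an edgeR unadjusted p under 0.05. Ebf1, the early B cell factor, had -3.10 ± 0.73 (adjusted p = 0.180), Dntt, the enzyme that adds bases at segment junctions, -2.74 ± 1.08 (0.330), and Arpp21, a marker of lymphoid precursors, -3.31 ± 1.24 (0.319). Ikzf3, which encodes the factor Aiolos, ran the other way, at 44.1 and 106 CPM in TAM-IC and 10.6 and 15.9 in naive macrophages (log2 fold change 2.68 ± 0.50, adjusted p = 0.120).

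In TAM-NIC against naive macrophages, edgeR called 0 of 19 further B cell genes, with 8 at an unadjusted p under 0.05 and 12 below 0. DESeq2 called 7 of the 19, all lower. Over all genes, edgeR called 0%, DESeq2 called 7.59%, and 15.2% had an edgeR unadjusted p under 0.05. Ighd had -3.33 ± 0.38 (edgeR adjusted p = 0.183) and Fcmr -3.05 ± 0.59 (0.219). Of the 10 precursor genes edgeR called 0, with 5 at an unadjusted p under 0.05, and DESeq2 called 5, of which 4 were lower. By edgeR 8 were below 0, among them Ebf1 (-2.93 ± 0.73, adjusted p = 0.224), the factor Lef1 (-2.90 ± 0.72, 0.227) and Akap12, a scaffold of kinase signalling (-2.42 ± 0.63, 0.229). Arpp21 had 0 counts in the first library of TAM-NIC, and its fitted value is no bound.

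Between the TAM groups, 0 of 19 B cell genes and 0 of 10 precursor genes were called by edgeR. An edgeR unadjusted p under 0.05 was reached by 7 and 1, against 17.1% of all genes. DESeq2 called 4 of the B cell genes, 3 of them lower, and 0 of the precursor genes, against 9.9% of all genes. Bank1 stood at 129 and 129 CPM in TAM-NIC, 32.0 and 27.2 in TAM-IC and 199 and 133 in naive macrophages (in contact over not in contact -2.11 ± 0.29, adjusted p = 0.0961). This order of groups is that of Cd79b. Pou2af1, a B cell coactivator (-4.42 ± 1.09, adjusted p = 0.185), and Tnfrsf13c, the BAFF receptor (-3.50 ± 1.18, 0.231), stood at 422 and 117 CPM in the second library of TAM-NIC, against 35.3 and 6.96 in the first. Ltb, lymphotoxin beta, had 1.54 ± 0.33 (adjusted p = 0.162). Of the precursor genes Akap12 had 1.56 ± 0.62 (0.279), Ikzf3 1.05 ± 0.47 (0.323), Lef1 1.20 ± 0.69 (0.422) and Sox4 -1.15 ± 0.68 (0.438).

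The signalling genes downstream of the B cell receptor are also used by macrophages. Of 12 tested, 0 were called by edgeR in any comparison. DESeq2 called 2 for TAM-IC over TAM-NIC, 1 for TAM-IC over naive and 0 for TAM-NIC over naive. Over all genes DESeq2 called 9.9%, 7.66% and 7.59%. In the same order 3, 2 and 0 had an edgeR unadjusted p under 0.05, against 17.1%, 14.6% and 15.2% of all genes. For this list both naive libraries stood above all TAM libraries for 1 of 12, against 16.6% of all genes tested. Medians were 0.18 for TAM-IC over TAM-NIC, 0.39 for TAM-IC over naive and 0.21 for TAM-NIC over naive, against -0.00, 0.00 and 0.06 over all genes tested. The gene with the smallest p was Blnk in both comparisons of TAM-IC. It encodes the linker that couples the receptor to phospholipase C and stood at 140 and 233 CPM in TAM-NIC, 24.7 and 9.40 in TAM-IC and 138 and 96.7 in naive macrophages. TAM-IC was the low group for Blnk as for Cd79b and Bank1, with a log2 fold change of -3.44 ± 0.54 over TAM-NIC (adjusted p = 0.119) and -2.64 ± 0.52 over naive (0.135), by edgeR's quasi-likelihood test. Plcg2, the phospholipase itself, had 0.91 ± 0.31 (adjusted p = 0.239) and 0.78 ± 0.31 (0.337) in these comparisons. Cd81, a tetraspanin, had -2.22 ± 0.79 over TAM-NIC (adjusted p = 0.244).

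The end joining genes that close RAG-made breaks are used by all cells for DNA repair, and 0 of 10 were called by edgeR or by DESeq2 in any comparison, with 0 at an edgeR unadjusted p under 0.05. For TAM-IC over TAM-NIC, TAM-IC over naive and TAM-NIC over naive, edgeR called 0%, 0.219% and 0% of all genes. DESeq2 called 9.9%, 7.66% and 7.59%, and 17.1%, 14.6% and 15.2% had an edgeR unadjusted p under 0.05. Both naive libraries stood above all TAM libraries for 3 of 10, against 16.6% of all genes tested. Medians were 0.02, -0.29 and -0.32 for TAM-IC over TAM-NIC, TAM-IC over naive and TAM-NIC over naive. By p the leading genes were Lig4, the ligase (-1.09 ± 0.44, adjusted p = 0.342), and the nuclease gene Dclre1c (-0.78 ± 0.39, 0.408) in TAM-IC over naive. The polymerase gene Poll led in TAM-NIC over naive (-0.72 ± 0.34, adjusted p = 0.382) and the Ku80 gene Xrcc5 between TAM groups (-1.002 ± 0.42, 0.297).

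In the 2 plasma cell libraries, counted in a separate table and given here with no test, Cd79a and Cd79b stood above their naive macrophage values, and Pax5, Igll1, Vpreb1, Rag1 and Rag2 below theirs. Cd79a stood at 358 and 382 CPM, Cd79b at 217 and 222, Ms4a1 at 73.5 and 27.4, Blk at 19.3 and 5.66, and Pax5 at 0.269 and 2.03. By CPM of the full total, Pax5 was thus below both naive macrophage values, while Cd79a was over 4 times either. Vpreb3 was the most abundant precursor gene there, also per length, at 12.9 and 41.1 CPM of precursor sums of 13.7 and 45.4 CPM. The other precursor genes stood at 0.183 and 2.30 CPM for Igll1, 0.196 and 0.365 for Vpreb1, 0.183 and 0.548 for Rag1 and 0.220 and 1.07 for Rag2. The second library had the higher value for all 5 precursor genes and Pax5, and the first for Ms4a1 and Blk. Immunoglobulin genes took 67.3% and 70.4% of plasma cell counts, which lowers the CPM of every other gene. Without immunoglobulin counts in the total, the plasma cell mean of Cd79a was 1192 CPM in place of 369.9, that of Cd79b 707 in place of 219.6, and that of Vpreb3 89.2 in place of 27.0. On that total the second plasma cell library had 6.88 CPM of Pax5, between the naive values of 4.76 and 7.98. Rag1 (1.85, naive 1.24 and 3.52) and Rag2 (3.61, naive 3.09 and 6.06) also lay between. Igll1 and Vpreb1 stayed below both naive values in each plasma cell library.

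The genes most like the 10 across the 6 macrophage libraries were found by Pearson's r of log2(CPM + 1) with the mean of each set, over 11294 protein-coding genes. For the precursor set these were Ydjc (r = 0.998), Atg4a (0.996), Bag6 (0.994), Nnt (0.993), Gfra1 (0.990) and Ccr1 (0.989). For the mature set they were Nrg4 (0.999), Dhrs11 (0.994), Apeh (0.994), Bag6 (0.994), Sowaha (0.994) and Siglecg (0.991). With 6 libraries of 1 sort, 380 and 310 genes had r over 0.9, so the names describe the shape of the pattern and no more. Siglecg, a receptor that restrains B cell receptor signals, stood at 5.05 and 12.1 CPM in TAM-NIC, 12.2 and 8.14 in TAM-IC and 57.5 and 107 in naive macrophages. Gfra1, a receptor subunit for glial cell derived neurotrophic factor, had 0 counts in the first library of TAM-NIC and 4.22 and 7.48 CPM in naive macrophages.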

How the data were processed

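RNA of 6 macrophage and 2 plasma cell samples was sequenced from SMART-Seq v4 libraries, which do not mark the strand. The authors deposited whole-number read counts per gene in 2 tables. STAR, featureCounts, DESeq2 1.26, mm10 and GRCm38 are named in the submitters' processing notes, without roles, and how reads that map to several genes were handled is not stated there. All columns were matched to samples by their labels. Identifiers were matched, without version, to GENCODE M21 (47224 of 47643 for macrophages, and 48081 of 52458 symbols for plasma cells). The members and the lists were chosen with earlier results of these data known.

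The 6 macrophage libraries were fitted together in edgeR 4.0.16 (R 4.3.3), with TMM scaling, filterByExpr (minimum count 10, minimum total 15), a group term and 3 residual degrees of freedom. The quasi-likelihood test was adjusted by Benjamini-Hochberg over 15522 genes, and genes under 0.05 were called. Standard errors are the size of the log2 fold change over the square root of F. DESeq2 1.42.0 and limma 3.58.1 were alternatives. Of each other list up to 4 tested genes with the smallest p per comparison are named, except that some list genes are not reported here. Likeness used a mean log2(CPM + 1) of 1 or more. Plots and sums used Python 3.11.15.

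TAM libraries with the same mouse number deviated together with r = 0.182 over 12069 genes, but sex-linked transcripts showed that the pair numbered 2 is not 1 animal, so the numbers were not used as pairs.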

Additional observations from a re-analysis of the deposited data

How the results depend on the processing

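With 2 libraries a group, the number of the 10 genes called varied with the tool and the filter on low counts. The share of all genes called by the same fit follows in brackets. TAM-IC over TAM-NIC gave 0 calls (0%), but 3 with DESeq2 (9.9%) and 1 with no filter on low counts (7.2%). TAM-IC over naive gave 0 (0.219%), but 9 with DESeq2 (7.66%), 8 with no filter (5.53%) and 7 with only the 2 groups compared (4.47%). TAM-NIC over naive gave 0 (0%), but 8 with DESeq2 (7.59%) and 8 with no filter (5.96%). Leaving out each library in turn gave 0 to 5 calls for TAM-IC over naive, 0 to 6 for TAM-NIC over naive and 0 between the TAM groups, where without TAM-NIC replicate 1 edgeR called 1510 of 17041 genes, none of them among the 10. RLE size factors, limma-voom, bias-adjusted quasi-dispersions and a minimum count of 30 gave 0 in all 3 comparisons, and the cause of these differences was not tested. With the mouse number as a replicate block 0 of the 10 were called in each comparison, as without it, while calls over all genes went from 0 to 59, from 34 to 168 and from 0 to 1.

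Against naive macrophages all 10 fold changes kept their sign under every alternative run. Between the TAM groups 4 values reversed when a library was left out: Rag2 was 0.10 without TAM-NIC replicate 2, Pax5 was 0.16 without TAM-NIC replicate 1 and 0.37 without TAM-IC replicate 2, and Ms4a1 was -0.12 without TAM-NIC replicate 1. Over the omissions of 1 library Rag2 ranged from -1.60 to 0.10, Pax5 from -1.43 to 0.37 and Ms4a1 from -0.12 to 1.29. Low counts limit Rag1 (1 count in TAM-NIC) and Vpreb1 (11 counts).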
